A study of Neurospora crassa with 24 samples.

Results

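The steadiest genes of *Neurospora crassa*, a filamentous fungus and circadian model, were 100 transcripts whose level differed least among 24 RNA-seq libraries that span hours in darkness and a knockout of MSN1, a transcription factor of the stress response. They were selected on their coefficient of variation (CV, the SD divided by the mean, in percent) over all 24 libraries, with each estimated count taken relative to its library's total (CPM). Of 9730 genes in the tables, 2045 had a mean of at least 50 CPM. After the 100 most abundant of these were left out, 1945 genes remained, and the 100 of lowest CV (5.14%) are the members. The low spread of the members is therefore a consequence of their selection and not a result.

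ΔMSN1 is the knockout of *msn-1* (NCU02671) in the strain FGSC #11345, and WT is FGSC #2489. Both grew as liquid cultures in Vogel's medium with glucose, arginine and biotin, went through 2 days of 11 h light and 11 h dark for entrainment, and were harvested at 0 to 22 h after lights off in steps of 2 h. There were 12 libraries of ΔMSN1 and 12 of WT, made from poly(A) RNA, with 1 culture per strain and time. A spread over libraries thus holds time, strain, culture and counting together. The labels of ΔMSN1 name a sequencing lane and those of WT do not, so strain and lane cannot be told apart. Estimated counts summed to 2415479 to 9829687 per library in ΔMSN1 and to 2732470 to 8094126 in WT. The transcript of *msn-1* was at 0 in 11 ΔMSN1 libraries and at 0.0413 CPM in the other one, against 25.7 to 50.8 CPM in WT.

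A transcript of constant level is what a study of rhythms needs as a yardstick, because PCR and blot measurements are divided by a reference gene. Many genes in common use for this encode proteins that every cell requires, such as actin, tubulin and glycolytic enzymes. Protein machines named below include the proteasome, which degrades tagged proteins, the vacuolar ATPase, which acidifies vacuoles, and complex I, which feeds electrons of NADH into the respiratory chain. In *N. crassa* a large part of the transcriptome follows the clock, which is built around *frq* and the white collar proteins.

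The CV of the members ran between 5.56 and 10.0% with a median of 9.06%, against a median of 19.0% over the 1945 genes. Over the 24 libraries the highest value of a member was 1.23 to 1.68 times its lowest, with a median ratio of 1.43, against 2.10 for the 1945 genes. At the border, NCU02565, NCU09709, *vma-2*, NCU03038 and NCU02610 (a dynein light chain, a subunit of a microtubule motor) were the last members, at 9.95 to 10.0%. The first genes outside were *crp-4* (a protein of the cytosolic ribosome), *nuo10.6* (complex I), *tim10* (mitochondrial protein import), *dpm* and NCU02588, at 10.05 to 10.1%. No gap in CV separated the last members from the first genes outside.

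**Figure D1:**
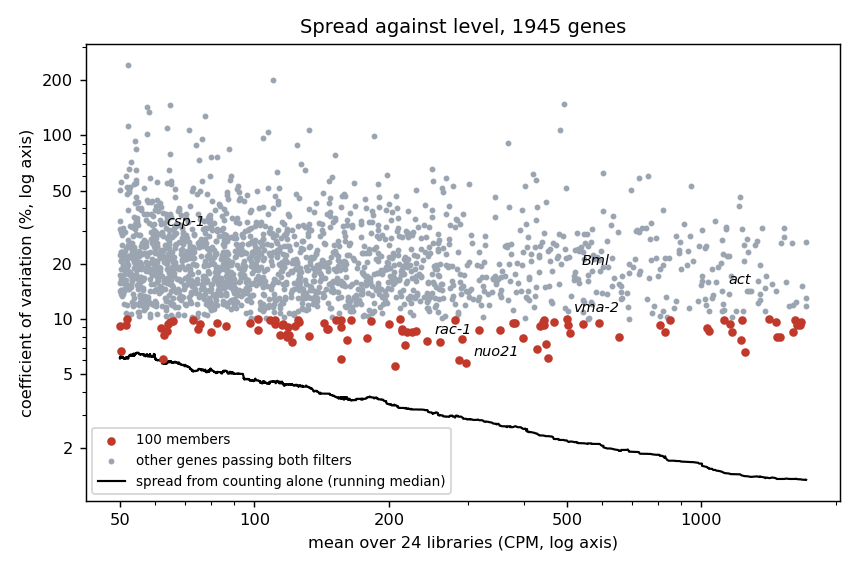
CV over 24 libraries (percent, log axis) against mean level (CPM, log axis) for the 1945 genes that passed both filters, with the 100 members in red. The line is a running median of the spread that counting alone would give. The members lie under a CV of 10.0% at all levels and come close to the line only at the low end, where NCU09673 has a mean of 50.4 CPM.

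The gene of lowest CV, NCU02781, has no symbol in the gene table used here. It had 186 CPM in the lowest, 210 CPM in the median and 233 CPM in the highest library of ΔMSN1, against 187, 206 and 215 CPM in WT. Its CV was 6.18% in ΔMSN1 and 4.36% in WT, and the ranges of both strains overlapped almost wholly. Next came *nuo21*, a subunit of complex I. It stood at 277, 301 and 346 CPM in the lowest, median and highest library of ΔMSN1 and at 266, 292 and 305 CPM in WT. The lowest value of *nuo21* in ΔMSN1 fell at 8 h and the highest at 16 h.

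Rank 3 went to *pcb-4*, a beta subunit of the 20S core of the proteasome, which forms the chamber where proteins are cut. It had 267, 290 and 325 CPM in the lowest, median and highest library of ΔMSN1 and 263, 276 and 296 CPM in WT, again with overlapping ranges. Its highest value over all 24 libraries was 1.23 times its lowest, the smallest such ratio among the members. NCU08273, NCU00465, NCU10058, NCU06741 and NCU09673, which have no symbol, followed with a CV of 6.04 to 6.71%. Of these, NCU06741 was abundant, at 1112, 1291 and 1394 CPM in the lowest, median and highest library of ΔMSN1 and 1093, 1214 and 1368 CPM in WT. The first 10 closed with *nuo20.9* of complex I (6.85%) and *vma-10*, a stalk subunit of the vacuolar ATPase (7.27%).

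**Figure D2:**
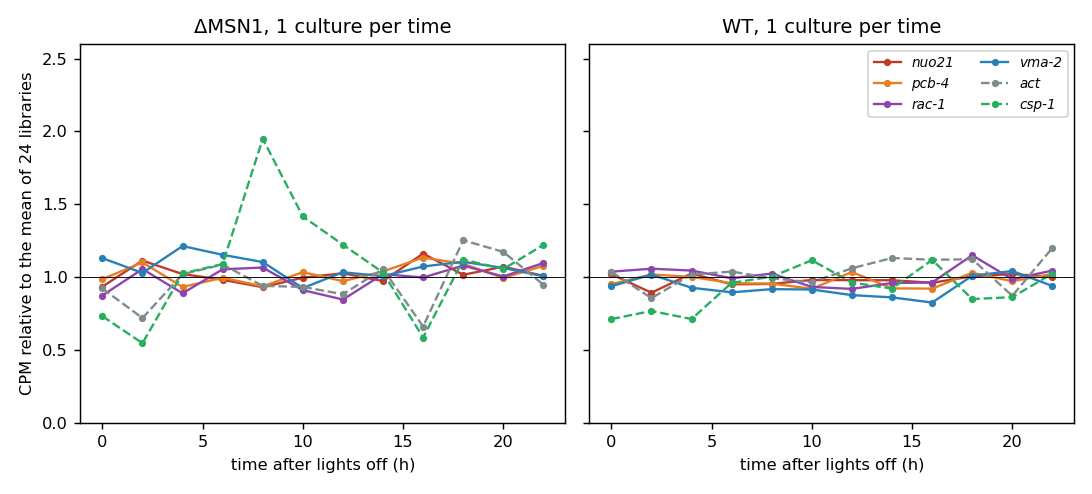
Level of 6 genes in each library, divided by the gene's mean over 24 libraries, against time after lights off (h), with ΔMSN1 on the left and WT on the right and 1 culture per point. The members *nuo21*, *pcb-4*, *rac-1* and *vma-2* (solid lines) stay near 1, while *act* (CV 14.2%) and the clock-controlled repressor gene *csp-1* (CV 29.1%), drawn dashed, range more widely, most of all in ΔMSN1.

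The members carried a symbol in 28 cases, of which 23 fall into families that the symbols define. Complex I held the most, with 8 members among its 29 subunit genes that passed both filters (27.6%), namely *nuo21*, *nuo20.9*, *nuo18.4*, *nuo13.4*, *nuo40*, *nuo21.3a*, *nuo10.4* and *nuo14*. Its 29 genes had a median CV of 11.5%, and 23 of them were under the median of the 1945 genes. The spread within the family was wide all the same. *nuo49* reached 23.4%, *nuo51* 19.2% and *nuo78* 19.1%, against 5.75% for *nuo21*. The assembly factor *cia30*, which helps to build complex I and is no part of the finished enzyme, was a member too (9.40%).

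The 13 genes of the 20S proteasome core all had a CV under the median of the 1945 genes. Of the alpha subunits, which form the gate, *pca-4*, *pca-2*, *pca-6* and *pca-5* were members (4 of 6), and of the beta subunits *pcb-4* and *pcb-2* (2 of 7). The regulatory particle, which recognises and unfolds substrates, had 1 member of 15, *rpn-9* of the lid, and a median CV of 13.8%. In *pcb-2* the lowest, median and highest library had 240, 267 and 291 CPM in ΔMSN1 and 227, 254 and 276 CPM in WT, which overlap.

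For the vacuolar ATPase 5 of 14 genes were members. These were *vma-10*, the proteolipid genes *vma-3* and *vma-11* of the membrane ring, and *vma-13* and *vma-2* of the part that splits ATP, and the 14 genes had a median CV of 11.7%. *vma-1*, which encodes the catalytic subunit, had a CV of 19.6%, outside the members. *vma-2* had 462, 534 and 607 CPM in the lowest, median and highest library of ΔMSN1 and 413, 461 and 521 CPM in WT. Within each strain its CV was low, at 7.22% in ΔMSN1 and 7.01% in WT, and its higher level in ΔMSN1 by library totals brought it to rank 98 over both.

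The members of each machine were also summed. The 8 members of complex I added up to 2937 ± 130 CPM in ΔMSN1 and 2865 ± 108 CPM in WT (SD, n = 12 each). The 6 members of the proteasome core gave 1674 ± 98.4 CPM in ΔMSN1 and 1570 ± 54.3 CPM in WT, and the 5 members of the vacuolar ATPase 1621 ± 76.1 CPM in ΔMSN1 and 1547 ± 57.8 CPM in WT. These SDs correspond to a CV of 3.46 to 5.88%, which is low partly by construction, as the genes summed were selected for a low CV and a sum averages out their separate noise. How the deposited values were scaled for gene length is not stated, so these sums compare libraries and not the machines with each other.

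Of the families that the symbols define, 9 gave no member. The enzymes of the TCA cycle (13 genes) had a median CV of 23.9%, amino acid synthesis (31 genes) 23%, cell wall proteins (14 genes) 25.2%, glycoside hydrolases (7 genes) 24.8%, and complexes III and IV of the respiratory chain (8 genes) 18.8%. Mitochondrial protein import (11 genes) had a median CV of 14.6%, the cytoskeleton (9 genes) 15.3%, cytosolic ribosomal proteins (4 genes) 13.9% and F1 ATP synthase (2 genes) 21.6%. In the families of more than 10 genes the steadiest were *tim10* (10.1%), *tca-4* (15.5%), *acw-11* (14.7%) and, in amino acid synthesis, *arg-5* (13.3%). Heat shock proteins (8 genes) stood at 25.5% with *hsp90a* (8.73%) as the 1 member. The families were drawn up from symbols after values had been seen and were not tested.

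**Figure D3:**
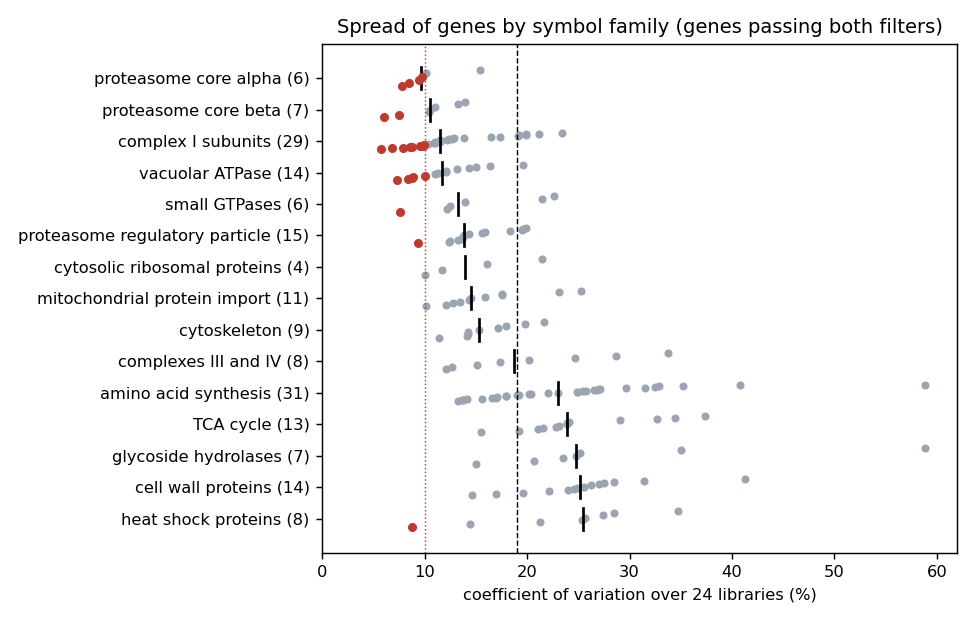
CV over 24 libraries (percent) of each gene that passed both filters, by symbol family, for the families with at least 4 such genes (number in brackets). Members are red, other genes grey, short black bars mark the family median, the dotted line is the highest CV of a member (10.0%) and the dashed line the median of the 1945 genes (19.0%). The 2 groups of the proteasome core, complex I and the vacuolar ATPase have the lowest medians.

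The remaining members with a symbol act in signalling and upkeep, and some are named here only because they carry one. *rac-1* had a CV of 7.6% (rank 14), with 206, 246 and 267 CPM in the lowest, median and highest library of ΔMSN1 and 224, 245 and 280 CPM in WT. It was the 1 member among the 6 genes placed with small GTPases by their symbols, whose median CV was 13.2%. *rdi-1* was a member too (9.21%). *bd*, which its symbol does not place there, is the band locus. It encodes a Ras-type GTPase and its mutant allele is widely used to make the conidiation rhythm visible, and the transcript had a CV of 8.62%. *nfh-1*, a 14-3-3 protein that binds phosphorylated partners, had 7.35%, *atg-8*, the ubiquitin-like protein of autophagosomes, 9.87%, and *ylo-1*, an enzyme of carotenoid synthesis, 9.51%.

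Of the genes often used as references, *rac-1* and *vma-2* were members by library totals and the others were not. *act* (actin) had a CV of 14.2% and rank 487 of 1945, with 17.5% in ΔMSN1 and 10.0% in WT. *cya-4*, a subunit of cytochrome c oxidase, had rank 599 (15.1%) and *Bml* (beta-tubulin) rank 880 (18.0%). *tef-1* (translation elongation factor) and *gpd-1* (glyceraldehyde-3-phosphate dehydrogenase) were among the 100 most abundant genes and so could not be members, and their CV was 25.4% and 40.4%. Under TMM scaling, described further on, the order was less clear, with *vma-2* at rank 149 (10.6%), *rac-1* at 221 (11.6%), *Bml* at 250 (11.9%), *cya-4* at 266 (12.0%) and *act* at 607 (15.0%), so that none of them was among the 100 steadiest. Clock genes and *con-10* were read beside these. *vvd*, a blue light receptor, had 199% (rank 1944), *con-10* 35.5% and *csp-1* 29.1%, while *ccg-1* (38.8%) was too abundant to be ranked. Too low to be ranked were *frq* (56.3%, mean 9.90 CPM), *frh* (25.1%, 6.48 CPM), *wc-1* (34.7%, 6.28 CPM) and *wc-2* (29.3%, 28.5 CPM). Under TMM these 4 had 59.8, 19.3, 25.4 and 19.6%, against a median of 18.5% for the 1945 genes. Counting noise at such levels is part of their CV.

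Members were found at all levels above the minimum but not in equal shares. Of genes at 50 to 100 CPM 18 of 880 were members (2.05%), at 100 to 200 CPM 29 of 541 (5.36%), at 200 to 500 CPM 28 of 322 (8.70%), at 500 to 1000 CPM 8 of 119 (6.72%) and above 1000 CPM 17 of 83 (20.5%). Their means ran from 50.1 to 1674 CPM with a median of 214 CPM, against 110 CPM for the 1945 genes. The lowest means belonged to NCU10927, NCU09673 and NCU09461 and the highest to NCU03148, NCU09109 and NCU01827. Counting noise was estimated as Poisson from the values times gene length, and its median was 3.23% for the members and 4.39% for the 1945 genes. In 28 members it came to more than 50% of the CV. Among the 1694 genes of 20 to 50 CPM, which the rule leaves out, 28 had a CV under that of the last member, and among the 100 most abundant 15 did. Gene length, from the NC12 assembly, had a median of 1956 bp in members and 2029 bp in the 1945 genes.

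Of the members, 4 pairs were direct neighbours in the gene order of NC12, out of 493 neighbouring pairs among the 1945 genes, of which 57 held a member. These were NCU02707 and NCU10498, NCU06741 and NCU06740, *nuo21* and NCU05220, and *rpn-9* and *nuo40*. In the last pair a proteasome lid gene (9.35%) lies beside a complex I gene (8.73%).

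Within strains, the members were somewhat more variable in the knockout. Their median CV was 8.80% in ΔMSN1 and 7.84% in WT, and 61 members had the higher CV in ΔMSN1 and 39 in WT. The 1945 genes showed the same order, with medians of 17.9% in ΔMSN1 and 15.3% in WT and 65.2% of them more variable in ΔMSN1. Of the sum of squares of a member over 24 libraries, time took a median of 49.5%, strain 7.24% and the remainder 38.5%. The 1945 genes had 47.1, 12.9 and 33.6%. With 12 times, 2 strains and 1 culture of each, noise alone gives time a large share. These shares therefore do not measure an effect of time. Leaving out 1 time in turn kept 83 to 94 of the 100 members. WT at 10 h held the lowest value of 15 members and the highest of 0. ΔMSN1 at 22 h held the highest of 13 and the lowest of 8, and ΔMSN1 at 2 h the highest of 12 and the lowest of 1. Such extremes were counted for the members alone, and the 1945 genes shifted in these libraries too. Their median log2 ratio to the gene's own mean was −0.12 in WT at 10 h, 0.13 in ΔMSN1 at 22 h and 0.02 in ΔMSN1 at 2 h. For the members it was −0.11, 0.04 and 0.06.

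Libraries that the selection had not used were read by choosing 100 genes in one strain and measuring them in the other, by the same rule. The 100 steadiest of WT had a median CV of 11.6% in ΔMSN1, against 17.8% for all genes ranked, and 94 were under that median and 65 in the lowest 25%. The 100 steadiest of ΔMSN1 had 9.42% in WT, against 15.2%, with 91 under the median and 73 in the lowest 25%. Both lists shared 15 genes (15% of each), namely NCU02781, *nuo21*, *pcb-4*, NCU08273, NCU00465, NCU10058, NCU06741, *nuo20.9*, *nfh-1*, *pcb-2*, NCU03911, *pca-4*, *vma-2*, NCU04368 and NCU08944. The first 13 are members. The lists were drawn from 1836 genes ranked in WT and 2031 in ΔMSN1. The part of a gene's level in what the lists share was not tested. NCU04368 (rank 112) and NCU08944 (rank 365) were steady in each strain, at 8.07% and 7.20% in ΔMSN1 and 7.25% and 7.26% in WT, but had a CV of 10.2% and 13.1% over both strains.

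The members' low spread was tied to the scaling by library totals. A CPM value is a share of the library, so these data give no transcript number per cell. TMM scaling, in which edgeR sets libraries to one another after trimming the genes of most extreme ratio, changed the order of the genes. Under TMM the members' median CV was 12.9%, against 18.5% for the 1945 genes, and each of the 100 members was under that median, yet only 10 were still among the 100 steadiest. The members' rank under TMM ran from 6 to 850 with a median of 357. Those 10 were NCU09673, NCU03290, NCU04115, NCU02634, NCU10927, NCU02899, *rdi-1*, NCU04069, NCU09119 and NCU07954. With DESeq2 size factors 6 were kept, and all 6 (NCU04115, NCU02634, NCU02899, NCU04069, NCU09119 and NCU07954) are among these 10. The lists of 100 under TMM and DESeq2 shared 88 genes, so DESeq2 is no independent check of the TMM list. NCU07954 had the lowest CV of a member under TMM (6.75%), at 150 ± 9.93 TMM-scaled CPM in ΔMSN1 and 154 ± 10.5 in WT (SD, n = 12 each).

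The 100 steadiest genes under TMM had CVs of 5.88 to 9.87%, about as low as those of the members under library totals. Among their first 21 were *ck-1a* (a casein kinase that phosphorylates FRQ), *mak-2* (a MAP kinase of cell fusion), *hH2Az* (a histone variant), *vph-1* and *vma-6* of the vacuolar ATPase and *pcb-5* of the proteasome core. None of these 6 is a member. Of the families above, complex I had a median CV of 15.1% under TMM and the vacuolar ATPase 15.3%, while the proteasome regulatory particle and the small GTPases both stood at 12.4%. The summed complex I members came to 2802 ± 408 TMM-scaled CPM in ΔMSN1 and 3037 ± 249 in WT (SD, n = 12 each). Those of the proteasome core came to 1599 ± 248 in ΔMSN1 and 1662 ± 98.8 in WT, and those of the vacuolar ATPase to 1547 ± 238 in ΔMSN1 and 1639 ± 126 in WT. For these 3 machines the mean was higher in ΔMSN1 by library totals and lower in ΔMSN1 by TMM, and the SD was larger by TMM.

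**Figure D4:**
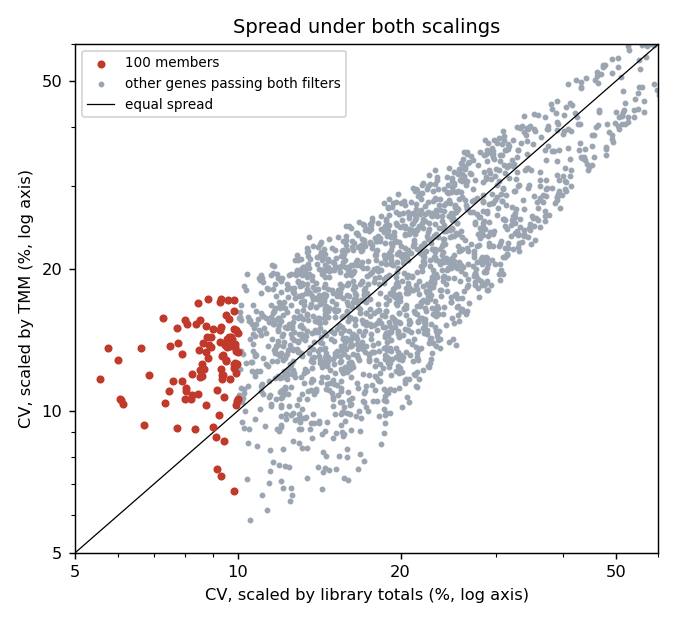
CV by library totals (horizontal) against CV by TMM (vertical), both in percent on log axes, for genes that passed both filters, with the 100 members in red. Of all genes 45 lie beyond 60% and outside the axes. Most members lie above the line of equal spread, and their median is 9.06% by totals and 12.9% by TMM.

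The libraries differed in how much of the total a few genes took. The 100 most abundant genes held 42.5 to 53.0% of the total in ΔMSN1 libraries (median 47.3%) and 46.7 to 52.8% in WT libraries (median 50.9%). TMM factors ran from 0.840 to 1.26 in ΔMSN1 (median 1.07) and from 0.846 to 1.11 in WT (median 0.940). The extremes in ΔMSN1 were 8 h, with the highest factor (1.26), and 16 h, with the lowest (0.840) and the highest share in abundant genes (53.0%). The members together held 40853 to 45388 CPM by totals in ΔMSN1 (median 42640) and 38964 to 44738 CPM in WT (median 43499). The part of these library differences in the choice of members was not tested.

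**Figure D5:**
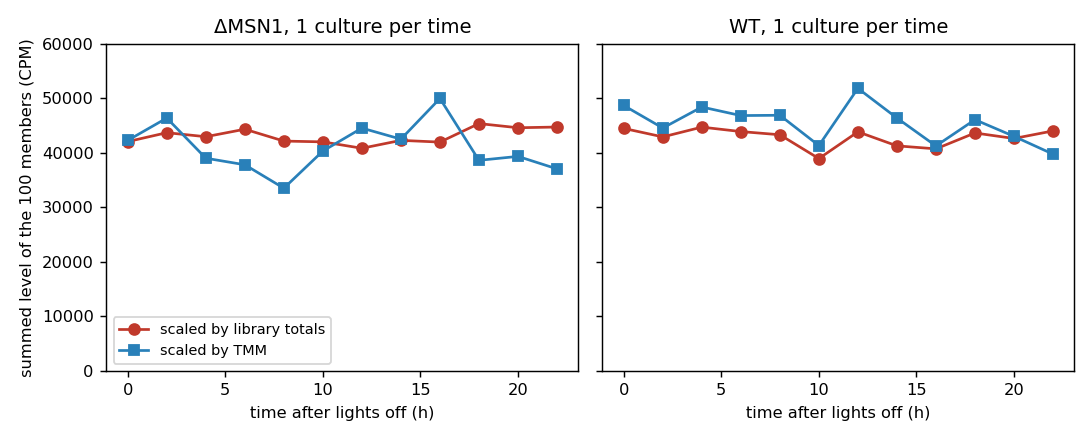
Summed level of the 100 members (CPM, from 0) against time after lights off (h), in ΔMSN1 on the left and WT on the right, 1 culture per point, scaled by library totals (red circles) and by TMM (blue squares). By totals the sum lies between 38964 and 45388 CPM in all 24 libraries, and by TMM its lowest value is 33522 CPM in ΔMSN1 at 8 h and its highest 51855 CPM in WT at 12 h.

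Differences between ΔMSN1 and WT were tested over all genes with edgeR's quasi-likelihood test, with TMM scaling and time as a factor. As the strain contrast entered the selection, the members' values are a description. All 100 members passed the filter of a mean of 2 CPM. At an adjusted p of 0.05, 0 members were higher in ΔMSN1, where 11.9% of the 7310 genes tested and 10.3% of the 1945 genes were higher. The count was 0 also at an unadjusted p of 0.05, where 1398 of the 7310 genes were higher. It was 0 by DESeq2 too, which called 8.6% of the genes tested higher. Lower in ΔMSN1 were 15 members, where 9.93% of the 7310 genes and 15.3% of the 1945 genes were lower. This count ran from 7 to 38 when 1 time was left out, with 8 without 4 h, 7 without 6 h, 38 without 16 h and 7 without 18 h. Over all genes tested, the same 4 fits called 577, 544, 821 and 564 lower. DESeq2 called 24 members lower, against 10.3% of the genes tested. Library totals in place of TMM moved the median of all genes tested by 0.18 on the log2 scale. With them 4 members were higher, against 32.5% of the genes tested, and 0 were lower, against 3.79%. The values of these 4 were 0.20 for *vma-2*, 0.23 for NCU02565, 0.17 for *rpn-9* and 0.14 for NCU07437 (log2, edgeR).

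The members' median log2 difference of ΔMSN1 over WT was −0.13 under TMM, against −0.05 for the 1945 genes and 0.01 for all genes tested. By library totals it was 0.04, against 0.13 for the 1945 genes and 0.19 for all genes tested. Among the 15 were *nuo10.4* (−0.25 ± 0.07 SE, edgeR adjusted p = 0.0158), *nuo14* (−0.23 ± 0.08, adjusted p = 0.0467) and *ylo-1* (−0.23 ± 0.07, adjusted p = 0.0269). NCU03038 had the lowest value, −0.29 ± 0.07 SE (adjusted p = 0.00773), followed by NCU02016 and NCU08502, both at −0.28. By totals these 3 stood at −0.12, −0.11 and −0.11, with no call. The highest values under TMM were 0.05 in NCU02565 and 0.03 in *vma-2*. The ranges of both strains overlapped in every member, which follows in large part from selecting on a low CV over both strains together.

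Periods of 22, 11 and 7.3 h were fitted jointly in each strain with edgeR on 6 harmonic terms, at an adjusted p of 0.1. A rhythm adds to the CV on which the members were selected, so few calls among them follow from the rule. In ΔMSN1 0 members were called, where 0.041% of 7321 genes were called. In WT 0 members were called, where 0.318% of 7239 genes were called. At an unadjusted p of 0.05 edgeR had 0 members in ΔMSN1, against 8.07% of the genes tested, and 1 in WT, NCU07495, against 12.7%. At an adjusted p of 0.1 DESeq2 called 0 members in ΔMSN1 and 0 in WT, against 2.62% and 4.25% of the genes tested. At an unadjusted p of 0.05 it had 1 member in ΔMSN1, against 8.07% of the genes tested, and 0 in WT, against 618 of 7239 genes. The fitted 22 h fold from trough to peak had a median of 1.18 in ΔMSN1 and 1.11 in WT over the members, against 1.2 and 1.21 over the 1945 genes. The times cover a single cycle with 1 culture each. On simulated WT libraries the test found 60% of genes with a 2-fold rhythm and 16% of those with a 1.5-fold rhythm. These shares are not specific to the members, and how small a rhythm the test could find in them was not tested.

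An earlier WT time course from other cultures, not analysed here, had been used to list circadian genes and genes with periods of 11 and 7.3 h. Of the 1945 genes, 466 (24%) are on one of those lists, and of the 100 members 2, both on the circadian one, namely *vma-11* and NCU02610. In the libraries analysed here the 383 circadian genes among the 1945 had a median CV of 26.3% and the 66 with a period of 7.3 h 23.9%, against 17% for genes on none of the lists. As a rhythm adds to the CV, a low share of listed genes among the members follows in part from the rule.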

How the data were processed

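The deposited tables give, per the labels, estimated counts per gene, and the authors' processing notes name kallisto 0.43.1. No genome build was found among the sources used here. The values are not whole, and longer genes have lower smallest values above 0, so the values may have been rescaled by length, which is not stated. CPM was computed from library totals. For edgeR 4.0.16 and DESeq2 1.42.0 (R 4.3.3) values were rounded after a filter on a mean of 2 CPM. The rest used Python 3.11.15, numpy 2.4.6, pandas 2.3.3 and matplotlib 3.10.9. The fits were checked on simulated counts in which 200 genes were changed.

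The members and all lists were chosen with earlier results of these data known. Named were the 10 members of lowest CV, those at rank 96 to 100 and the genes at 101 to 105, the extremes of mean and of strain difference, up to 3 members per family, the steadiest of each family of 10 or more, and known reference and clock genes. The gene table holds symbols but no product names, so the planned lists by product could not be used. In their place 17 families were drawn up from symbols after values had been seen. Members without a symbol have no role stated here, except NCU02610, whose role is that of the gene annotation given with the study. No sequences are shown, since none were used here. 0 columns were left unmapped. The p-values rest on single cultures. In the strain test the spread is that of the strain difference among times, and in the rhythm test what the 6 harmonic terms leave over. They do not cover repeat cultures of 1 time. One gene outside the members is not reported here.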

Additional observations from a re-analysis of the deposited data

How the results depend on the processing

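Of 119 alternative values, 99 kept their direction and lay near the reported one, 20 moved and 0 reversed. Calls higher and lower were compared as separate counts, so a change of sign does not show as reversed. The members' median log2 difference of ΔMSN1 over WT did change sign, from −0.13 under TMM to 0.04 by library totals. Of the 100 members, 10 were kept under TMM scaling, 6 with DESeq2 size factors, 59 by the median absolute deviation over the median, 39 from WT alone and 47 from ΔMSN1 alone. Values times gene length kept 79 and a minimum of 20 CPM 75. Leaving out 1 time kept 83 to 94. The members' median CV was 14.2% under TMM and 15.4% under DESeq2 size factors in ΔMSN1, and 9.85% and 10.2% in WT. By library totals 2378 genes were higher and 277 lower in ΔMSN1, against 870 and 726 by TMM, and of the members 4 were higher and 0 lower. DESeq2 called 24 members lower, and 751 of all genes. Without 1 time the members called lower numbered 7 to 38, with 8 without 4 h, 7 without 6 h, 38 without 16 h and 7 without 18 h. Of all genes, 544 to 821 were called lower in these fits. The fit has time as a block, and with no replicate block 19 members and 640 of all genes were lower. DESeq2's likelihood ratio test called 192 genes rhythmic in ΔMSN1 (edgeR 3) and 308 in WT (edgeR 23), and 0 members in each. The cause of these shifts was not tested. Counting noise limits the members of lowest level, and 1 culture per strain and time limits all of them.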
